A study of Mus musculus with 32 samples.

Results

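The phagocyte NADPH oxidase was followed through 7 genes, selected by name: Cybb, Cyba, Ncf1, Ncf4, Rac2, Nox4 and Duox2. All 7 were found among the 33280 genes of the count tables. The values come from RNA-seq of 32 libraries from 8 wild type C57BL/6JCrl mice of both sexes. Control mice (CTL; A2, A3, A4 and B1) received vehicle, and BLZ945 mice (C2, C3, C4 and D1) received the CSF1R inhibitor BLZ945 at 200 mg/kg for 7 days, which empties the brain of many macrophages that then repopulate. In all mice a thromboembolic stroke was induced 8 weeks later by thrombin injection into the middle cerebral artery, so there was no animal without stroke and the contralateral hemisphere served as the reference. The age of the mice is not given in the labels. From each mouse, whole tissue slices and sorted subdural CNS-associated macrophages (sdCAMs, gated as CD45+CD11b+CD206+ cells without Ly6C, Ly6G and CD11c, from brains without choroid plexus) were taken from the ipsilateral and the contralateral side 1 day after stroke. Each group held 4 libraries in tissue and in contralateral sdCAMs, and 3 in ipsilateral sdCAMs, because the ipsilateral sdCAM libraries of A3 and C2, with 54055 and 55155 counts in all, were left out (their labels call the RNA degraded).

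The phagocyte oxidase moves electrons from NADPH across a membrane onto oxygen and makes superoxide, the source of most other reactive oxygen species in phagocytes. Its membrane core is a heterodimer of gp91phox, the catalytic subunit encoded by Cybb (also NOX2), and p22phox, encoded by Cyba. On activation cytosolic subunits, among them p47phox (Ncf1) and p40phox (Ncf4), move to this core together with a Rac GTPase, Rac1 or Rac2. Nox4 is a relative of gp91phox that uses p22phox but no cytosolic subunits, makes mostly hydrogen peroxide and is best known from kidney and vessel walls. Duox2 is a distant relative of epithelia and thyroid that needs its own maturation factor. In brain, microglia, border macrophages and invading myeloid cells carry most of the phagocyte complex. Rac1 was not among the 7 genes but is given beside them.

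The promoters of Cybb, Cyba and Ncf1 are shown because Cybb and Cyba rose in BLZ945 tissue while Ncf1 was not called. They are RefSeq sequences on GRCm38.p6, written 5′ to 3′ on the strand of the gene, from 250 bases before to 50 bases after the annotated start, and entries were matched for 5 of the 7 genes. The capitals mark matches, on either strand, to 3 motifs: GAGGAA (core of the site of PU.1, a myeloid factor), TGANTCA (AP-1) and GGGNNTTCC (NF-kB).
Cybb, chrX:9469275-9469574, minus strand: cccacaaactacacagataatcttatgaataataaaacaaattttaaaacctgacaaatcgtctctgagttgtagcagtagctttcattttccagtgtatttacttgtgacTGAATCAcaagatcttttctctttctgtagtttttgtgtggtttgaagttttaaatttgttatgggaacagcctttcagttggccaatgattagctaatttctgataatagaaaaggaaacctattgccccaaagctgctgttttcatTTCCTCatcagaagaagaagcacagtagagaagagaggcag
Cyba, chr8:122432891-122433190, minus strand: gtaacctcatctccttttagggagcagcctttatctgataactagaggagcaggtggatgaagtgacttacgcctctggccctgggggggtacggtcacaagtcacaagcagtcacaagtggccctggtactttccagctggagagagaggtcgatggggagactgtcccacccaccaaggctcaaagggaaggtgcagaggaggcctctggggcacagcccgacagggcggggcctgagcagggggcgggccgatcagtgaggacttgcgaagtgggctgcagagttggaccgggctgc
Ncf1, chr5:134229576-134229875, minus strand: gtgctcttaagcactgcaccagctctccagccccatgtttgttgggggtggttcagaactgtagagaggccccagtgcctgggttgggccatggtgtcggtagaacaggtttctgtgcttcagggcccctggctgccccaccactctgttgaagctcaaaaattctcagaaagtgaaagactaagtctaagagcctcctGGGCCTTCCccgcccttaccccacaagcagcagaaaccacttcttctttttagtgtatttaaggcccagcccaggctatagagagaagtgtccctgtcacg
The Cybb promoter held 1 AP-1 match, from base -139 to base -133, and 1 PU.1 core match on the other strand, from base 10 to base 15 after the start. The Ncf1 promoter held 1 NF-kB match, from base -51 to base -43. No overlap between these motifs occurred, and the Cyba, Nox4 and Duox2 promoters had none of the 3. Of all 32851 promoters of this length, 28.3% held GAGGAA, 7.81% held TGANTCA and 5.82% held GGGNNTTCC, and a match is a description of these letters only.

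The 16 tissue libraries held between 9288717 and 12781505 counts, and the 14 sdCAM libraries between 7397393 and 11081409, so that 3 counts, the limit below which a gene was read as not detected, corresponded in tissue to 0.235 to 0.323 CPM and in sorted cells to 0.271 to 0.406 CPM (counting error only). CPM here means a gene's share of its library's counts after TMM normalisation within each table. The sdCAM libraries were rich in border macrophage markers (8 of 8 called higher than in contralateral tissue, Mrc1, Cd163, Lyve1 and Pf4 among them, none at 0 in any library), with summed levels of 1548 to 5739 CPM contralaterally and 4548 to 9236 ipsilaterally. They also held 7 microglia markers at 6039 to 17712 and 9710 to 26656 CPM, among them P2ry12 at 1118 CPM or more in each library. The libraries are therefore called sdCAMs by their label and gate, and the values below are of this mixture. In bulk libraries, fewer cells of a type and less RNA per cell cannot be told apart.

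Contralateral sdCAM libraries further carried RNA of cells that the gate should remove, and this went with the hemisphere. The 8 endothelial markers summed to 1024 to 3314 CPM contralaterally and to 52.7 to 220 CPM ipsilaterally, with no overlap, and 7 of 8 in CTL and 8 of 8 in BLZ945 mice were called lower on the ipsilateral side. Among all sdCAM genes tested, 2.36% in CTL and 4.41% in BLZ945 mice were called lower on that side. The 8 choroid plexus markers reached 13446 CPM in A4, 32281 in C3 and 56393 in C4 contralaterally, against at most 1811 ipsilaterally. The 8 pan-macrophage markers (Csf1r, Aif1, Cx3cr1, Laptm5, Tyrobp, Fcer1g, Ctss and C1qa) summed to 10699 to 26583 CPM contralaterally and 26924 to 35055 ipsilaterally, again with no overlap. Any macrophage gene read in CPM in sdCAMs is therefore read against a hemisphere difference in these macrophage markers.

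The complex was far more abundant in sdCAMs than in tissue. On a scale common to both tables and divided by exon length, contralateral CTL sdCAMs held Cyba at 619, Ncf1 at 91.2, Rac2 at 57.9, Cybb at 40.5 and Ncf4 at 38.5 CPM per kb (means, n = 4), with the ubiquitous Rac1 at 128. In contralateral CTL tissue the order was partly different, with Cyba at 5.13, Ncf1 at 2.35, Rac2 at 0.764, Ncf4 at 0.326 and Cybb at 0.0714 CPM per kb, and Rac1 at 58.0. By these means Cybb stood near Ncf4 and Rac2 in sdCAMs and was the lowest of the 5 phagocyte members in tissue. In tissue the ranges of Cyba, Ncf1 and Rac2 per kb did not overlap, while those of Rac2 and Ncf4 and of Ncf4 and Cybb did, Ncf4 being at 0 counts in A4. In sdCAMs the range of Cyba lay apart, and those of Ncf1 and Rac2, Rac2 and Cybb, and Cybb and Ncf4 overlapped.

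**Figure D1:**
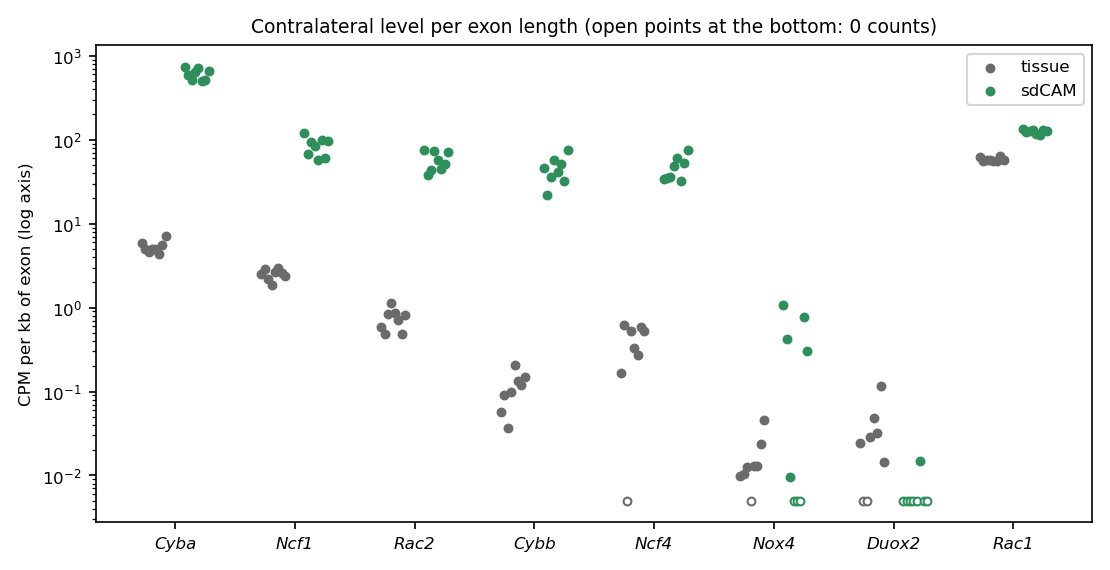
Contralateral level of each gene in CPM per kb of exon (log axis), 1 point per library, with 8 tissue libraries in grey and 8 sdCAM libraries in green, and libraries at 0 counts drawn as open points at the bottom. Cyba, Ncf1, Rac2, Cybb and Ncf4 lay higher in each sdCAM library than in any tissue library, Nox4 was scattered, and Duox2 was at 0 in 7 of 8 sdCAM libraries.

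The contrast between compartments put numbers on this, with sorting and library preparation that cannot be told apart from the compartment. In the contralateral hemisphere, averaged over both treatments, 6 of the 7 members were called higher in sdCAMs, where 30.3% of all genes tested were. Duox2 was called lower, where 37.1% were, but it passed the count filter only through its tissue counts. Cybb had the highest log2 fold change (8.72, SE 0.31, 422-fold), followed by Ncf4 (6.90, SE 0.34), Cyba (6.83, SE 0.16), Rac2 (6.27, SE 0.23) and Ncf1 (5.08, SE 0.17). The adjusted p-values of these 5 lay at 5.21e-16 or below. Rac1 stood at 1.11 (SE 0.06). In the ipsilateral hemisphere 5 of 7 were called higher, where 25.3% of all genes were called higher and 44.5% lower. The log2 fold changes were 7.51 for Cybb, 6.43 for Cyba, 5.78 for Ncf4, 5.72 for Rac2 and 5.54 for Ncf1, so the members lay closer together on that side. The median over all genes tested was -0.15 contralaterally and -0.75 ipsilaterally.

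Ncf1 was the phagocyte member with the most tissue signal for its sdCAM level. Set against the summed pan-macrophage markers of the same library, tissue held 22.2 ± 3.84 Ncf1 counts per 1000 marker counts (SD, n = 4, CTL contralateral) and sdCAMs held 15.7 ± 2.08. For Cybb the values were 1.08 ± 0.470 in tissue and 10.9 ± 3.0 in sdCAMs. Tissue thus held less Cybb relative to Ncf1 than sdCAMs did. In the GENCODE M21 annotation 408 of the 3663 exon bases of Ncf1 (11.1%) overlap exons of Gtf2ird2 on the opposite strand, and the library kit is not described as marking strand, so reads in that stretch cannot be told apart. No other member shares exon bases with another gene there.

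In tissue, the membrane core of the oxidase was higher on the ipsilateral side. Cybb rose in both treatments and Cyba was called in BLZ945 mice, while Rac2 and Ncf4 were higher in each ipsilateral library than in any contralateral library of the same treatment without passing the threshold. Ncf1 was called in neither treatment. In CTL mice, 1 of 7 members was called higher against 0.443% of all genes (none lower, 0%). In BLZ945 mice 2 of 7 were called higher against 1.12% of all genes (none lower, 0.0369%).

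Cybb was scarce in contralateral CTL tissue, with 0.317, 0.510, 0.206 and 0.555 CPM in A2, A3, A4 and B1, which are 4, 6, 2 and 6 counts. Ipsilaterally the same mice had 1.41, 1.46, 1.33 and 3.54 CPM. The lowest ipsilateral library lay above the highest contralateral one, and B1 stood well above the other 3 ipsilateral libraries. The log2 fold change was 2.24 (SE 0.42, 4.73-fold, adjusted p = 0.0202). In BLZ945 mice C2, C3, C4 and D1 the contralateral values were 1.18, 0.732, 0.651 and 0.843 CPM and the ipsilateral values 4.16, 2.71, 2.31 and 4.1 CPM. Groups again did not overlap, and all 4 mice moved in the same direction. The log2 fold change was 1.96 (SE 0.38, 3.88-fold, adjusted p = 0.0124). With the mouse as a block, the adjusted p-values were 0.00301 and 0.00120. The calls rested on the 4 mice of a group: leaving out any CTL mouse (A2, A3, A4 or B1) gave adjusted p-values of 0.0639 to 0.141 in CTL with log2 fold changes of 1.96 to 2.49, and without C2, C4 or D1 the BLZ945 call was lost too (0.0504 to 0.111).

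The sample labels and the column names disagree on which tissue library of A3 is ipsilateral, and the labels were followed. With the hemispheres of A3 as in the column names, the log2 fold change of Cybb in CTL tissue was 1.39 (adjusted p = 1.00), that in BLZ945 tissue 1.96 (adjusted p = 0.152), and no member was called in either treatment. In CTL tissue the log2 fold change of Rac2 was then 0.11, that of Cyba 0.18 and that of Ncf4 1.00.

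Cyba, the partner that stabilises gp91phox, ranged from 4.54 to 5.87 CPM in contralateral CTL tissue and was 6.09, 8.4, 6.01 and 9.97 CPM ipsilaterally in A2, A3, A4 and B1. The groups did not overlap, but A2 and A4 lay close to the contralateral level (log2 fold change 0.57, SE 0.20, adjusted p = 0.485). In BLZ945 mice Cyba went from 5.04, 4.29, 5.49 and 7.12 CPM contralaterally to 10.4, 10.9, 8.30 and 11.3 CPM ipsilaterally. All 4 mice were higher, and the log2 fold change was 0.90 (SE 0.20, adjusted p = 0.0271). Leaving out C2, C3, C4, D1 or the control A3 gave adjusted p-values of 0.0508 to 0.212, and scaling to the pan-macrophage markers gave a log2 fold change of 0.72 (adjusted p = 0.0858).

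Rac2, the haematopoietic Rac, was 1.74, 1.44, 2.48 and 3.42 CPM in contralateral and 3.67, 5.57, 3.98 and 5.19 CPM in ipsilateral CTL tissue. In BLZ945 mice it was 2.57, 2.09, 1.40 and 2.43 CPM contralaterally and 5.57, 4.21, 3.78 and 4.20 CPM ipsilaterally. With the labelled hemispheres neither treatment had overlapping groups, and the log2 fold changes were 1.02 (SE 0.27, adjusted p = 0.179) and 1.07 (SE 0.28, adjusted p = 0.0728). With the mouse as a block both were called (adjusted p = 0.0407 and 0.0198), and A3, whose hemispheres are in dispute, had the highest ipsilateral to contralateral ratio of the CTL mice (3.86, against 1.52 to 2.10 in the others). In these blocked fits 2 of 7 members in CTL and 3 of 7 in BLZ945 mice were called higher, against 0.938% and 1.99% of all genes in those fits. Rac1 showed no such difference, at 253 ± 3.44 CPM ipsilaterally and 250 ± 10.6 contralaterally in CTL tissue (SD, n = 4; log2 fold change 0.02, SE 0.06).

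Ncf4, whose product p40phox binds phosphoinositides on the phagosome, had 4, 14, 0 and 11 counts in contralateral and 18, 22, 20 and 27 counts in ipsilateral CTL tissue. BLZ945 mice had 6, 5, 12 and 11 counts contralaterally and 38, 20, 11 and 36 ipsilaterally. After normalisation the groups did not overlap in either treatment, although C4 barely moved (1.12 to 1.16 CPM). The log2 fold changes were 1.49 (SE 0.56, adjusted p = 0.607) and 1.62 (SE 0.55, adjusted p = 0.213), from libraries with 0 to 38 counts.

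Ncf1, the organiser subunit, had the smallest log2 fold changes of the 5 phagocyte members in tissue. It was 8.24 ± 1.46 CPM contralaterally and 9.69 ± 1.26 ipsilaterally in CTL mice, and 9.26 ± 0.774 and 9.76 ± 1.36 in BLZ945 mice (SD, n = 4). The groups overlapped in both treatments, with log2 fold changes of 0.23 (SE 0.15, adjusted p = 0.968) and 0.08 (SE 0.16, adjusted p = 0.929). Whether Ncf1 responded less than Cybb was not tested, since the fit compares samples and not genes.

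**Figure D2:**
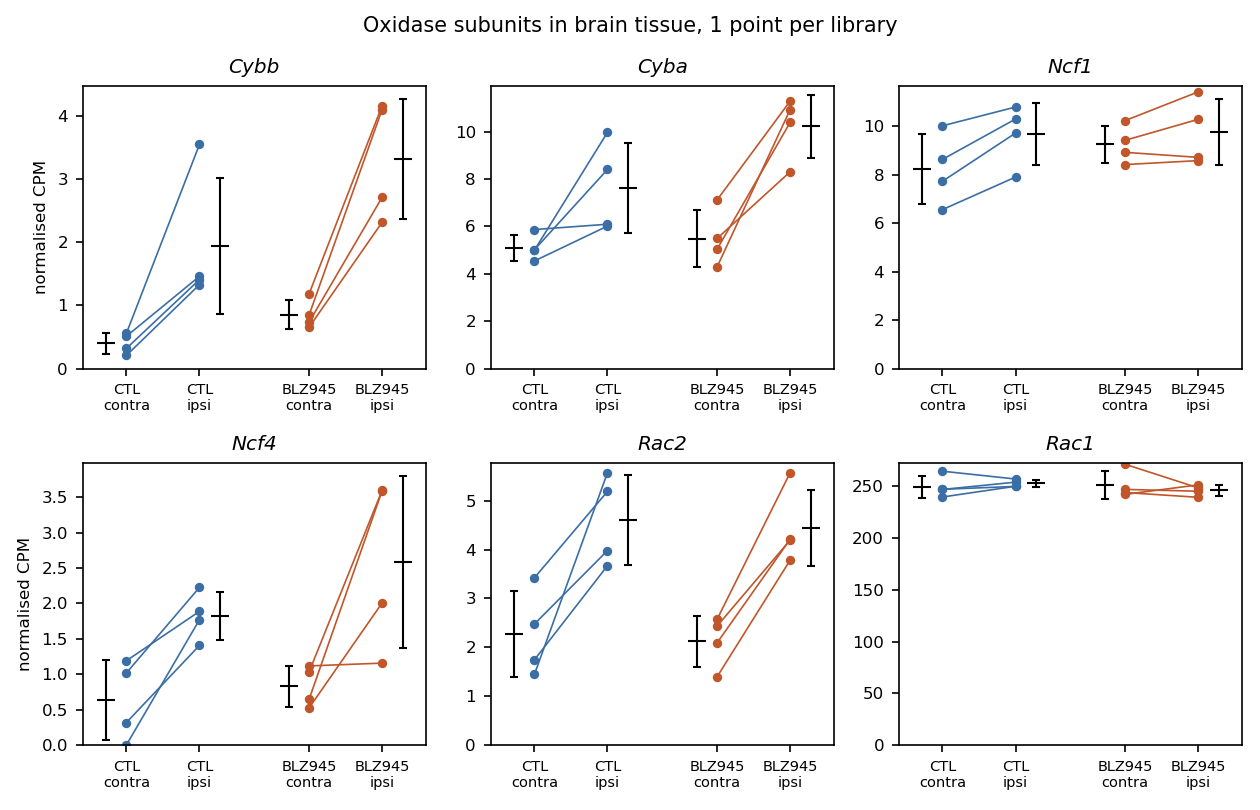
Normalised CPM of 6 oxidase genes in tissue, 1 point per library, with lines joining the hemispheres of a mouse, CTL in blue and BLZ945 in orange, and black bars for the mean and SD of the 4 libraries of a group. Cybb, Cyba, Rac2 and Ncf4 were higher in each ipsilateral library than in any contralateral library of the same treatment, whereas the Ncf1 groups overlapped.

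Nox4 and Duox2 stayed near the limit of detection in tissue. Nox4 had 0 to 2 counts in the 8 CTL tissue libraries and 1 to 7 in the 8 BLZ945 libraries, the highest in ipsilateral C2. Duox2 had 0 to 2 counts in CTL tissue. In BLZ945 tissue it had 1 to 3 counts in 6 libraries, and 8 and 17 counts in the contralateral and the ipsilateral library of C4. At this depth no hemisphere difference was detectable for either gene (adjusted p = 0.836 or above).

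Several markers of macrophages and monocytes moved with these genes in tissue, and their part in the result was not tested. The 8 pan-macrophage markers summed to 357 to 420 CPM contralaterally and 384 to 490 ipsilaterally (1 of 8 called higher in each treatment, Fcer1g). The 8 monocyte markers summed to 80.6 to 111 CPM contralaterally and 131 to 230 ipsilaterally, with 1 of 8 called higher in each treatment, Fn1. The 10 neutrophil markers summed to 4.82 to 7.84 CPM contralaterally and 5.00 to 9.89 ipsilaterally, mostly from Csf3r, with 4 of the 10 too low to be tested. Of the 6 tested, 3 in CTL and 4 in BLZ945 mice had positive log2 fold changes (medians 0.67 and 0.71). None of them was called without the mouse as a block. Among these markers, S100a9 had a median of 0 CPM contralaterally (5 of 8 libraries at 0) and 1.38 CPM ipsilaterally (0 of 8 at 0). It was called with the mouse as a block (log2 fold changes 3.75 and 3.77, adjusted p = 0.0229 and 0.00883) and not without it (adjusted p = 0.190 and 0.111). Cxcr2, a chemokine receptor of neutrophils, was at 0 in 8 of 8 contralateral and 1 of 8 ipsilateral libraries. Microglia markers summed to nearly equal values in both hemispheres (186 to 213 and 179 to 222 CPM), although P2ry12 and Siglech were called lower ipsilaterally in BLZ945 mice. Scaled to the pan-macrophage markers of each library, Cybb had log2 fold changes of 2.05 (adjusted p = 0.0351) in CTL and 1.78 (adjusted p = 0.0212) in BLZ945 mice. The monocyte and neutrophil markers had no part in this scaling, which was chosen after the values were seen.

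In sdCAMs none of the 6 members tested was called between the hemispheres, although Cybb, Ncf1, Ncf4, Rac2 and Cyba all had positive log2 fold changes in both treatments. Among all genes, 0.426% were called higher in CTL and 1.2% in BLZ945 mice. By unadjusted p-values under 0.05, 3 of 6 members passed in CTL and 4 of 6 in BLZ945 mice, beside 3346 and 4088 of 18297 genes. The median log2 fold change of the members was 0.52 in CTL and 0.59 in BLZ945 mice, and that of all genes tested was -0.11 and -0.15. Duox2 was too low to be tested.

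Cybb was well counted here, with at least 1391 counts in each library. In contralateral CTL sdCAMs it was 281, 135, 219 and 348 CPM in A2, A3, A4 and B1, and ipsilaterally 445, 466 and 551 CPM in A2, A4 and B1. The CTL groups did not overlap, and the log2 fold change was 0.99 (SE 0.32, adjusted p = 0.110, and 0.0372 by DESeq2). In BLZ945 mice it was 247, 310, 193 and 456 CPM contralaterally in C2, C3, C4 and D1, and 442, 502 and 763 CPM ipsilaterally in C3, C4 and D1. The contralateral library of D1 lay above the ipsilateral library of C3, and D1 was the highest mouse on both sides. The log2 fold change was 0.92 (SE 0.32, adjusted p = 0.107), and with the mouse as a block 0.88 (adjusted p = 0.0439), which made Cybb the only member called in that fit, where 1.46% of all genes were called higher. In CTL mice the block gave no call (adjusted p = 0.110), with 0.126% of genes called higher.

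Set against the pan-macrophage markers, the Cybb difference was smaller. Of these 8 markers, 0 were called higher ipsilaterally in CTL and 5 in BLZ945 sdCAMs, beside 0.426% and 1.2% of all genes. This scaling therefore lowers any gene that rises with the markers, and it cannot tell more macrophage RNA from a response of the markers to stroke. Per 1000 pan-macrophage marker counts, contralateral and ipsilateral sdCAMs held 10.9 ± 3.0 and 15.6 ± 3.49 Cybb counts in CTL mice, and 17.9 ± 4.61 and 18.9 ± 8.33 in BLZ945 mice (SD, n = 4 and n = 3). In the fit with libraries scaled to these markers, a setting chosen after the values were seen, the log2 fold changes were 0.52 (adjusted p = 0.327) and 0.08 (adjusted p = 0.885). On that scale Cyba turned to -0.21 and -0.46, and Ncf1 to 0.08 and -0.19. Without the contralateral libraries of A4, C3 and C4, those with the most choroid plexus RNA, Cybb had log2 fold changes of 0.95 and 0.71 (adjusted p = 0.214 and 0.447).

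The cytosolic members Ncf1 and Rac2 had smaller log2 fold changes than Cybb and were not called. Ncf1 was 350 ± 82.0 CPM contralaterally (n = 4) and 532 ± 148 ipsilaterally (n = 3) in CTL sdCAMs, with overlap, and 296 ± 85.5 and 494 ± 81.1 CPM in BLZ945 sdCAMs, without overlap (log2 fold changes 0.61, SE 0.26, and 0.74, SE 0.26; adjusted p = 0.224 and 0.108). Rac2 was 188 ± 63.0 and 254 ± 67.0 CPM in CTL and 180 ± 37.6 and 289 ± 74.3 CPM in BLZ945 mice, with overlap in both (log2 fold changes 0.44 and 0.68, adjusted p = 0.405 and 0.162). Rac1, given beside the members, was higher in each ipsilateral sdCAM library than in any contralateral one of the same treatment. Rac1 was not called either (log2 fold changes 0.11 in CTL and 0.28 in BLZ945 mice, adjusted p = 0.739 and 0.246 by edgeR).

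Ncf4 in contralateral sdCAMs set 3 of the BLZ945 libraries apart. It was 124, 67.2, 112 and 159 CPM in C2, C3, C4 and D1, and 71.7, 74.7, 77.4 and 101 CPM in A2, A3, A4 and B1. C3 lay below all CTL libraries and the other 3 above them. The 10 neutrophil markers summed to 2069, 3101 and 2772 CPM in C2, C4 and D1, to 255 CPM in C3 and to 306 to 771 CPM in the CTL libraries, so the same 3 libraries stood out. The 8 monocyte markers set them apart too, with 1534, 920 and 1509 CPM in C2, C4 and D1, 229 CPM in C3 and 261 to 347 CPM in the CTL libraries. The difference between treatments in this hemisphere was 0.51 on the log2 scale (SE 0.23, unadjusted p = 0.0457, adjusted p = 0.759). The part of neutrophil and monocyte RNA in it was not tested. Ipsilaterally Ncf4 was 139, 98.6 and 131 CPM in A2, A4 and B1 and 168, 144 and 137 CPM in C3, C4 and D1. The neutrophil markers summed there to 315, 1433 and 613 CPM in A2, A4 and B1. In C3, C4 and D1 they summed to 409, 629 and 991 CPM. On this side A4, with the highest neutrophil sum, thus had the lowest Ncf4, and Ncf4 was highest in C3.

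Cyba was the highest member per kb in sdCAMs. It was 673 ± 99.1 and 834 ± 165 CPM in CTL and 638 ± 111 and 899 ± 130 CPM in BLZ945 sdCAMs, contralaterally and ipsilaterally, with overlap in both treatments (log2 fold changes 0.31, SE 0.20, and 0.49, SE 0.20; adjusted p = 0.405 and 0.156).

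**Figure D3:**
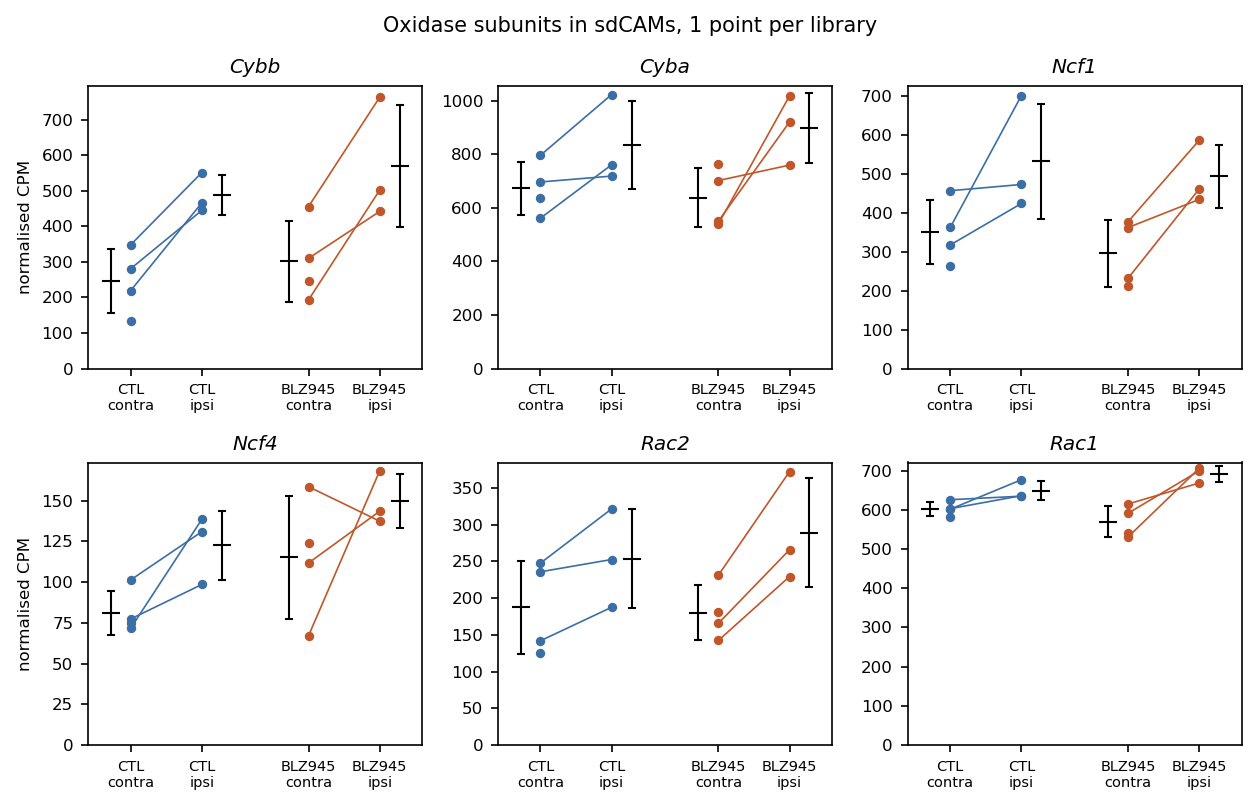
Normalised CPM of 6 oxidase genes in sdCAMs, drawn as for tissue, with 4 contralateral and 3 ipsilateral libraries per treatment and single points for A3 and C2, whose ipsilateral libraries were left out. Cybb did not overlap between hemispheres in CTL mice and Ncf1 did not in BLZ945 mice, while Cyba overlapped in both. Rac1, which is not a member, did not overlap in either treatment.

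Nox4 was present or absent by library rather than by group. It had 102 and 39 counts in contralateral A2 and A3, 67 and 26 in contralateral C4 and D1 and 44 in ipsilateral C4, and 0 to 2 counts in the other 9 sdCAM libraries. Of the 5 libraries with Nox4, 4 were contralateral, where endothelial and mural markers were high. Contralateral A2, with the most Nox4 counts, held 1189 CPM of endothelial and 917 CPM of mural and fibroblast markers. Both lay near the low end of the contralateral ranges (1024 to 3314 and 850 to 4701 CPM). Contralateral C4 had the highest mural and fibroblast sum of the 14 libraries (4701 CPM) and ipsilateral C4 the second highest of the 6 ipsilateral libraries (406 CPM, range 59.9 to 434) with the lowest endothelial sum (52.7 CPM), while contralateral C3, with no Nox4 count, held 2659 CPM of endothelial and 1839 CPM of mural and fibroblast markers. The part of these cells in the Nox4 counts was not tested. Its contralateral call against tissue (log2 fold change 4.35, SE 1.22, adjusted p = 0.00250) therefore rests on 4 of 8 libraries, and ipsilaterally it was not called (adjusted p = 0.613). No hemisphere difference was called in CTL (adjusted p = 0.332) or BLZ945 mice (0.961).

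Duox2 was practically absent from sdCAMs, with 1 count in the 8 contralateral libraries together against 18 counts in the 8 contralateral tissue libraries (ratio of rates 0.0637, 95% exact interval 0.00153 to 0.403, counting error only). It was called lower in sdCAMs contralaterally (adjusted p = 0.00871) and not ipsilaterally (0.0647). Of the 18 tissue counts, 8 came from C4.

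**Figure D4:**
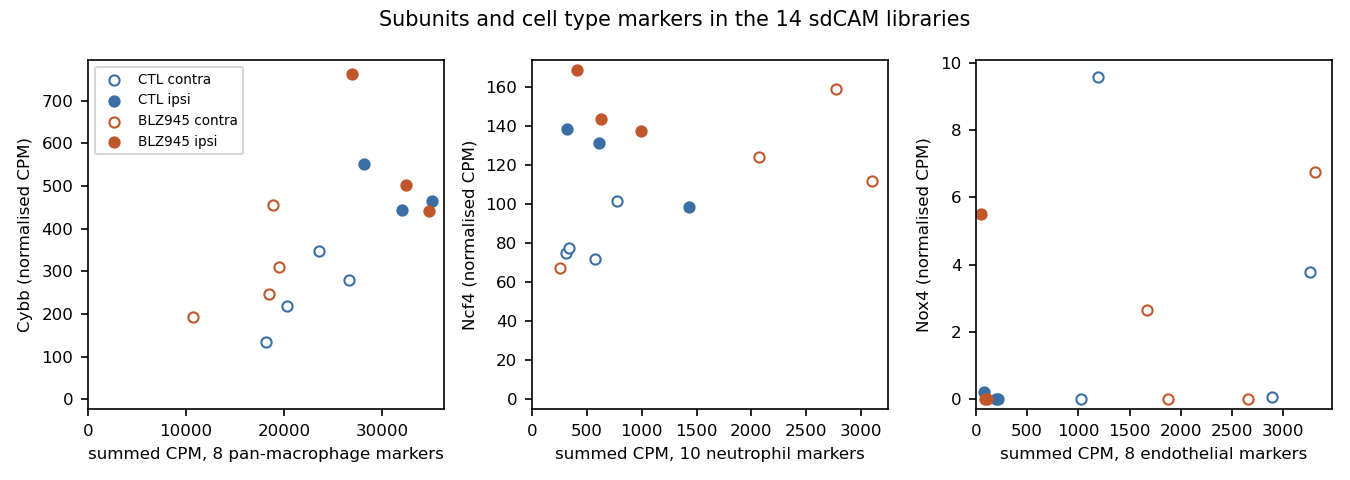
Normalised CPM of Cybb, Ncf4 and Nox4 in the 14 sdCAM libraries against the summed CPM of 8 pan-macrophage, 10 neutrophil and 8 endothelial markers, with open points for contralateral and filled points for ipsilateral libraries, CTL in blue and BLZ945 in orange. Ipsilateral libraries lie at higher macrophage sums, 3 contralateral BLZ945 libraries stand apart in neutrophil markers, and Nox4 is at 5.52 CPM in the library with the lowest endothelial sum.

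The stroke responses of CTL and BLZ945 mice were compared directly, since the study asked whether repopulated macrophages answer stroke differently. In tissue, no member had a called difference between the responses, and nor did any gene (0% of 18968, 386 at an unadjusted p under 0.05; DESeq2 called no gene). The difference was -0.29 (SE 0.55) for Cybb, 0.32 (SE 0.28) for Cyba, 0.04 (SE 0.38) for Rac2, 0.13 (SE 0.82) for Ncf4 and -0.15 (SE 0.22) for Ncf1, BLZ945 minus CTL on the log2 scale. In sdCAMs the differences were -0.07 (SE 0.45) for Cybb, 0.18 (SE 0.28) for Cyba, 0.13 (SE 0.37) for Ncf1, -0.22 (SE 0.35) for Ncf4 and 0.25 (SE 0.39) for Rac2, again with no call among the members or among all genes by edgeR (0% of 18297, 912 at an unadjusted p under 0.05), whereas DESeq2 called 48 genes, none of them a member. Equal responses are not shown by this, since the errors are as large as the differences or larger for most members.

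BLZ945 and CTL mice were also compared within a hemisphere. In tissue edgeR called no gene on either side (0% ipsilaterally, 858 at an unadjusted p under 0.05, and 0% contralaterally, 616), and DESeq2 called 1 gene ipsilaterally and 0 contralaterally, no member among them. Cybb was 3.32 ± 0.947 CPM in BLZ945 and 1.93 ± 1.07 CPM in CTL ipsilateral tissue (SD, n = 4), and 0.851 ± 0.232 against 0.397 ± 0.164 CPM contralaterally. Contralaterally each BLZ945 library lay above each CTL library, whereas ipsilaterally the CTL mouse B1 (3.54 CPM) exceeded C3 and C4. The log2 differences were 0.78 (SE 0.35, unadjusted p = 0.0392, adjusted p = 0.958) and 1.06 (SE 0.45, unadjusted p = 0.0317, adjusted p = 1). With the hemispheres of A3 as in the column names they were 0.96 and 0.40, and the contralateral groups overlapped, with A3 at 1.46 CPM. Cyba differed by 0.42 (SE 0.19, adjusted p = 0.958) ipsilaterally and by 0.10 (SE 0.20) contralaterally, and Duox2 by 22 against 2 summed counts ipsilaterally, 17 of them from C4.

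In sdCAMs none of the 6 members was called between treatments in either hemisphere, nor was any gene by edgeR (0% ipsilaterally, 1034 at an unadjusted p under 0.05, and 0% contralaterally, 1133). DESeq2 called 128 and 44 genes, none of them a member. Cybb was 0.22 (SE 0.34) higher ipsilaterally and 0.30 (SE 0.30) higher contralaterally in BLZ945 mice on the log2 scale. Rac2 differed by 0.19 (SE 0.30) and -0.06 (SE 0.26), and Ncf1 by -0.11 (SE 0.28) and -0.24 (SE 0.24).

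**Figure D5:**
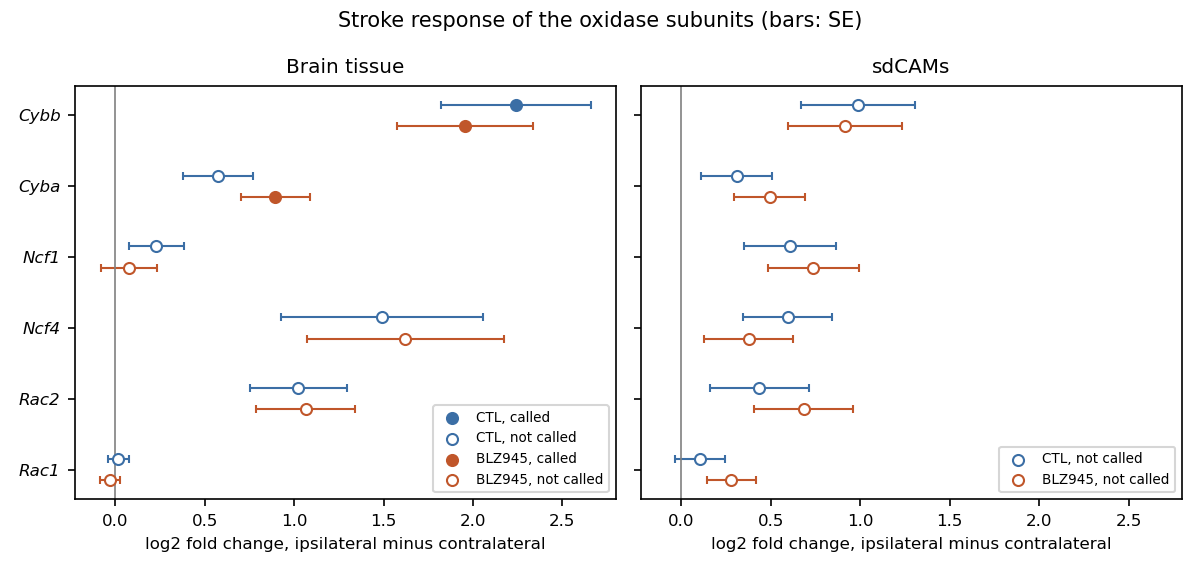
Log2 fold change, ipsilateral minus contralateral, of 5 members and Rac1 in tissue and sdCAMs, with bars for the SE, CTL in blue and BLZ945 in orange, and filled points for calls. Cybb is called in tissue in both treatments (2.24 and 1.96) and Cyba in BLZ945 tissue (0.90), while no sdCAM point is filled.

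Other genes around the oxidase were counted from lists. Of 22 oxidase activators (receptors, kinases and exchange factors that set off the burst), 4 were called higher ipsilaterally in CTL tissue (0.443% of all genes were) and 7 in BLZ945 tissue (1.12% of all genes), none lower, with medians of 0.47 and 0.82 against -0.01 and 0.00 over all genes tested. C5ar1, the receptor for the complement fragment C5a and a strong trigger of the oxidase, rose by 2.59 (SE 0.32, adjusted p = 0.000680) and 2.5 (SE 0.31, adjusted p = 0.000339) on the log2 scale. In CTL tissue Vav1, a Rac exchange factor, rose by 1.17, the nucleotide receptor P2ry6 by 1.15 and the Fc receptor adaptor Fcer1g, also a pan-macrophage marker here, by 0.75 (adjusted p of 0.0164 to 0.0445). In BLZ945 tissue the beta-glucan receptor Clec7a rose by 2.37, Tlr2 by 2.12 and Arhgdib by 1.10 (adjusted p of 0.0216 to 0.0421).

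In sdCAMs 1 activator was called higher in CTL mice, Vav1 (0.98, SE 0.25, adjusted p = 0.0473), and 7 of 22 in BLZ945 mice, beside 0.426% and 1.2% of all genes, among them C5ar1 (1.33), Tlr4 (1.21), P2ry6 (1.20) and the kinase Prkcb (1.14), with adjusted p-values of 0.0199 to 0.0494. The activator list medians, 0.69 and 0.79, stood beside pan-macrophage marker medians of 0.43 and 0.85. Of the 8 pan-macrophage markers, 0 were called higher in CTL and 5 in BLZ945 sdCAMs. Of the 8 border macrophage markers, 0 and 3 were, so such calls were not particular to the activators. Of the 11 other subunits, 7 could be tested in sdCAMs and 1 was called, Cybc1 (0.81, SE 0.19, adjusted p = 0.0243), a chaperone of the gp91phox and p22phox dimer, in BLZ945 mice. In tissue 8 could be tested and none was called.

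None of the 8 genes of NADPH supply, from the pentose phosphate pathway and its alternatives, was called between hemispheres in either table. Of 14 genes that remove superoxide and peroxide, none was called in tissue, whereas in sdCAMs Prdx6 was called lower ipsilaterally in both treatments (-1.31, SE 0.26, adjusted p = 0.0165 in CTL, and -1.46, SE 0.26, adjusted p = 0.00580 in BLZ945 mice), and Sod1 (-1.42) and Gpx4 (-1.11) in BLZ945 mice (adjusted p = 0.0297 and 0.0404). Among all genes 2.36% in CTL and 4.41% in BLZ945 sdCAMs were called lower. These falls went with the endothelial, mural and choroid plexus markers, which were lower on the same side. Their part was not tested.

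Members varied together to different degrees over libraries, as a description only, since libraries of a hemisphere share the stroke and those of a mouse share the animal. Over 16 tissue libraries Pearson's r of log2 CPM was 0.87 between Cybb and Cyba, 0.85 between Cybb and Ncf4, 0.77 between Cybb and Rac2 and 0.32 between Cybb and Ncf1. Over the 14 sdCAM libraries it was 0.83 between Cybb and Rac2, 0.67 between Cybb and Ncf1, 0.64 between Cybb and Ncf4 and 0.55 between Cybb and Cyba. Of these 4, Ncf1 had the lowest r with Cybb in tissue and Cyba in sdCAMs. Among 14317 tissue genes the most like Cybb were Csf2rb (0.94), Igfbp7 (0.93), C4b (0.92), Hcar2 (0.92) and Tlr2 (0.92). Among 13828 sdCAM genes they were Dab2 (0.97), Sla (0.96), Mob3a (0.96), Ptprc (0.96) and Ly9 (0.95).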

How the data were processed

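RNA was sequenced from 16 tissue and 16 sdCAM libraries. Per the labels and methods, the authors demultiplexed with bcl2fastq 2.20, aligned with STAR 2.7.11a and counted with featureCounts 2.0.8, and used DESeq2 1.46.0. The deposited values are raw counts per gene. Whether counting used strand, and which of the builds named in the methods applies, is not given in the sources used here. Exon lengths came from GENCODE M21 (GRCm38).

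The members and lists were chosen with earlier results of these data known. Named were the 7 members, Rac1, up to 4 called genes of each list with the largest change that averaged 1 CPM or more, and the 5 genes most like Cybb. A further gene named by this rule is not reported here. Genes whose counts summed to fewer than 8 (tissue), 7 (sdCAM) or 15 (both) were removed, leaving 18968, 18297 and 19389. Libraries were normalised by TMM and tested by edgeR 4.0.16 quasi-likelihood (R 4.3.3), with 4 groups per table fitted together and Benjamini-Hochberg adjustment. A call needed an adjusted p under 0.05 and an absolute log2 fold change over 0.59. SE is the log2 fold change divided by the root of F. Correlations used log2 CPM with a prior count of 2. Hemispheres of a mouse share the animal: deviations from group means correlated with a median r of 0.436 (lowest 0.214) over 8 tissue pairs and 0.122 (lowest 0.0451) over 6 sdCAM pairs. Mice are the replicates. Alternatives were DESeq2 1.42.0, other normalisation, filters and thresholds, the mouse as a block, all 16 sdCAM libraries, the A3 column names and leaving out each mouse. The fits were checked on simulated data.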

Additional observations from a re-analysis of the deposited data

Results flagged for a closer look

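A single library stood far from the other 3 of its group in 3 of 41 groups of 4 examined, by the gap to its nearest neighbour relative to the range. Chance flags about 1 in 20 groups of normally distributed values, a rate that does not apply to groups near 0 counts. Cybb was 3.54 CPM (43 counts) in ipsilateral CTL tissue of B1, against 1.33 to 1.46 CPM in the other 3 libraries. Duox2 was 1.79 CPM (17 counts) in ipsilateral BLZ945 tissue of C4. In contralateral BLZ945 sdCAMs Duox2 was 0.103 CPM in C3, a single count where the others had 0, a pattern that this rule always flags.

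The ipsilateral sdCAM library of C2, left out because its label calls the RNA degraded and with 55155 counts in all, held 6 Cybb counts and 8 Rac2 counts, above the limit of 3.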

How the results depend on the processing

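Called members moved from 1 to 2 in CTL tissue by DESeq2 and with the mouse as a replicate block (Rac2 added), and to 0 with the A3 column names. In BLZ945 tissue they moved from 2 to 0 with the A3 column names and to 1 when scaled to pan-macrophage genes, while DESeq2 and the block called 3 (Rac2 added). Leaving out each mouse gave 0 to 1 in CTL and 0 to 2 in BLZ945 tissue. In sdCAMs DESeq2 called 1 member in CTL (Cybb) and the block 1 in BLZ945 mice (Cybb). Beyond these and Rac2 in BLZ945 tissue, the block changed no other member's call.

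Scaling to pan-macrophage genes and leaving out the libraries rich in choroid plexus RNA were chosen after seeing the data. Under the first, log2 fold changes reversed to -0.081 for Ncf1 in BLZ945 tissue, to -0.21 for Cyba and -0.030 for Rac2 in CTL sdCAMs, and to -0.46 for Cyba, -0.19 for Ncf1, -0.60 for Ncf4 and -0.23 for Rac2 in BLZ945 sdCAMs. Under the second, Nox4 in BLZ945 sdCAMs reversed to 0.48. Cyba in CTL sdCAMs reversed to -0.080 with all 16 sdCAM libraries, and Nox4 in CTL tissue to -0.079 with the A3 column names. Leaving out each mouse, Nox4 ranged from -0.13 to 1.23 and Duox2 from -0.30 to 0.95 in BLZ945 tissue, and Nox4 from -6.08 to 0.29 in BLZ945 sdCAMs and from -2.77 to 1.26 for ipsilateral sdCAMs against tissue. Duox2, which passed the count filter only through its tissue counts, ranged in that last contrast from -3.67 to -1.62 and was called without A4 (adjusted p = 0.0376). The cause was not tested.

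Over all genes, 84 calls in CTL tissue became 139 by DESeq2, 185 with the block and 0 with the A3 column names. The 220 in BLZ945 tissue became 349, 414 and 6. In sdCAMs 510 in CTL became 1775 by DESeq2, 293 with the block and 205 with all 16 libraries, and 1027 in BLZ945 mice became 2462 by DESeq2, 428 with all 16 libraries and 3646 when scaled to pan-macrophage genes. Low counts limit Cybb, Ncf4, Nox4 and Duox2 in tissue.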
